A study of Mus musculus with 24 samples.

Results

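The genes described here were the Fc receptor genes Fcgr1, Fcgr2b, Fcgr3 and Fcgr4 and the gene of their shared signalling chain, Fcer1g. They were taken as the rows of the deposited expression table whose gene name equalled one of these symbols, which gave 5 of 24273 genes. The measurements were RNA-seq values from mouse bone marrow-derived macrophages (BMDMs), grown in culture from the marrow of C57BL/6 mice, in 24 libraries that formed 8 groups of 3. Both genotypes carried LysM-Cre, a Cre recombinase placed in the lysozyme gene Lyz2 and active in myeloid cells. The group named FosKO had Fos alleles flanked by loxP sites on both chromosomes (Fos-fl/fl), so that Cre deletes Fos in these cells. The control group was named LysM-Cre. The series' design text gives it no altered Fos allele, and the study's text gives it a single floxed one (FL/+), and the values cannot settle which applied. Cells of each genotype were left unstimulated (0 h) or were stimulated with lipopolysaccharide (LPS), which activates TLR4, at 100 ng/ml, with RNA taken 0.5, 1 or 2 h later.

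Fc receptors bind the constant part of antibodies and so let macrophages respond to antibody-coated particles and immune complexes. The receptors encoded by Fcgr1, Fcgr3 and Fcgr4 are activating: they bind IgG and signal through the common gamma chain encoded by Fcer1g, which carries the tyrosine motif that recruits the kinase SYK. The receptor encoded by Fcgr2b is inhibitory: it binds IgG complexes and, through a motif in its own tail, recruits the phosphatase SHIP1 (Inpp5d), which dampens activating signals. The balance of activating and inhibitory receptors is known to set how strongly macrophages react to IgG complexes, and interferons are known to raise several of the activating receptors.

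Before stimulation, FosKO macrophages had higher levels of Fcgr2b (1.97-fold), Fcgr4 (1.79-fold) and Fcgr1 (1.57-fold) than LysM-Cre macrophages, and a slightly higher level of Fcer1g (1.14-fold), whereas Fcgr3 differed by 0.00 on the log2 scale. Fcgr2b, Fcgr4 and Fcgr1 were also higher at 0.5, 1 and 2 h of LPS. So was Fcer1g in the deposited values, but its difference at 2 h was 0.01 after quantile normalisation. LPS raised Fcgr2b in both genotypes (3.01-fold in LysM-Cre and 2.93-fold in FosKO at 2 h) and lowered Fcgr1 (1.30-fold and 1.22-fold).

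All 5 genes have annotated positions on the mouse build GRCm38. Fcgr2b, Fcgr4 and Fcgr3 lie together on chromosome 1, at chr1:170958617-170976547 (minus strand), chr1:171018920-171029761 (plus strand) and chr1:171051174-171064935 (minus strand), within 106.318 kb. Fcer1g lies 164.637 kb beyond Fcgr3, at chr1:171229572-171234365 (minus strand), and Fcgr1 lies on another chromosome, at chr3:96282909-96293969 (minus strand). For the 3 genes with the largest genotype differences, the 250 bases before their RefSeq start sites (build GRCm38.p6) are printed 5′ to 3′ on the strand of the gene. The positions above come from another annotation, GENCODE. The printed Fcgr2b bases lie inside the Fcgr2b span given there and are not upstream of it. Capitals mark matches on either strand to TTCNNNGAA, the form of the gamma-activated sequence bound by STAT factors, or to the core of the interferon-stimulated response element (ISRE), in which any 2 bases separate GAAA from a further GAAA.
Fcgr1, chr3:96293970-96294219, minus strand: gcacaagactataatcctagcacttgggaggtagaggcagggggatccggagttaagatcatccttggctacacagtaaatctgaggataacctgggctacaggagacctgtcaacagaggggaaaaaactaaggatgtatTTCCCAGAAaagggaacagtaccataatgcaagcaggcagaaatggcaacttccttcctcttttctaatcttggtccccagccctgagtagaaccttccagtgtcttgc
Fcgr4, chr1:171018676-171018925, plus strand: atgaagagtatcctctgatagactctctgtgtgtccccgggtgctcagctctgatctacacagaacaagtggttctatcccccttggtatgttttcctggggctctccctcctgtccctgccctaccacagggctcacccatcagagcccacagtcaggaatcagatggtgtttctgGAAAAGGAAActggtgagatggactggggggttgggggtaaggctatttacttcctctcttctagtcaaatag
Fcgr2b, chr1:170976072-170976321, minus strand: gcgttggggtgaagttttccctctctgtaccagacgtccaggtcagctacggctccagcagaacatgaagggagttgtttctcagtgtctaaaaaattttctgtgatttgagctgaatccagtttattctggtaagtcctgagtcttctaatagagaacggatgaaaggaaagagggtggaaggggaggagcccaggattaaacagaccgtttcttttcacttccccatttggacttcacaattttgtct
The match in the Fcgr1 window began at position -109 relative to the start site, and the match in the Fcgr4 window at position -73. Counted over all 32851 RefSeq promoter windows of 300 bases, 8.30% held TTCNNNGAA and 3.44% held the ISRE core. The AP-1 letters TGANTCA, the form bound by FOS and JUN dimers, were in 7.81% of windows and in none of the 6 windows of these 5 genes (Fcgr3 has 2). The Fcgr2b window and both Fcgr3 windows held none of these 3 motifs, nor did that of Fcer1g. Both Fcgr3 windows also lie inside the Fcgr3 span given above. For Fcgr2b and Fcgr3 the bases upstream of those spans were not searched. A match in letters is a description and shows no binding.

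The libraries expressed macrophage genes. All 8 macrophage markers examined (among them Adgre1, Csf1r and Cd68) passed the filter on low values. Their summed level (log2) was 17.17 to 17.46 in LysM-Cre and 17.10 to 17.53 in FosKO. Single markers differed between genotypes (FosKO minus LysM-Cre) by -0.22 to 0.97 at 0 h and -0.25 to 1.00 at 0.5 h. At 1 and 2 h the ranges were -0.18 to 0.89 and -0.05 to 1.65. Their median differences were -0.10, -0.03, 0.06 and 0.07 at 0, 0.5, 1 and 2 h. In the test described below, 3, 3, 3 and 4 of the 8 were called higher in FosKO at these times. Called lower were 4, 1, 2 and 0. Of all genes tested, 18% to 24.4% were called higher and 15.9% to 20.3% lower. Of B cell markers, which matter here because B cells carry Fcgr2b, 1 of 5 passed (Cd79b), and the summed level was 5.49 to 5.75 in LysM-Cre and 5.12 to 5.56 in FosKO. Its mean in LysM-Cre was 5.57 at 0 h and 5.67 at 2 h. None of 4 NK cell, 5 mast cell and basophil (1 of them in the table) or 3 T cell markers passed. Of 5 neutrophil markers 1 passed (Ltf), with summed levels of 3.65 to 4.98 in LysM-Cre and 3.55 to 4.04 in FosKO. Of 3 dendritic cell markers 1 passed (Zbtb46), with summed levels at 2 h of 5.95 to 6.17 in LysM-Cre and 5.07 to 5.30 in FosKO. The part of such cells in the results was not tested. The labels could not be checked on Fos itself. Fos was higher in the libraries labelled FosKO than in LysM-Cre by 1.49, 1.64 and 3.29 (log2) at 0, 1 and 2 h. At 0.5 h Fos was lower in FosKO, by -0.77. The study's text reports Ifnb1 mRNA after LPS as higher in FosKO by RNA-seq and also by qRT-PCR. The RNA-seq result rests on this same comparison and its labels, so it does not check them. No Ifnb1 value of the deposited table is set against the qRT-PCR here. Ifnb1 is an outcome and not the deleted gene. A transcript that lacks only the floxed part is still counted, and which part of Fos the reads covered was not examined. Lyz2, which holds the Cre insertion, was higher in FosKO by 4.89 to 5.17 at the 4 times. The groups thus differed in Lyz2 as well as in the Fos alleles named above. The parts of these in the Fc receptor differences cannot be told apart. The study's text does not give the number of Cre copies in either group. Libraries also fell into sets by their 18S ribosomal RNA row, with 5 libraries at 16.65 to 16.998 and 19 at 18.57 to 19.39. The 5 were spread over both genotypes at 0.5 and 1 h, and values within the sets are given where they touch a result. In bulk RNA, fewer cells of a type and less RNA per cell cannot be told apart.

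The first comparison asked how FosKO and LysM-Cre macrophages differed at each time. Values are normalised log2 expression, and a difference of 1 is a doubling. Differences were tested with limma, a linear model with variances shared across genes, with Benjamini-Hochberg adjustment over all 13901 genes that passed the filter. Genes with an adjusted p below 0.05 were called. The study's methods call the libraries biological replicates. Neither the methods nor the labels say whether libraries of a group came from separate animals, so p-values measure the spread between these libraries. Of the 5 genes, 4, 4, 4 and 5 were called higher in FosKO at 0, 0.5, 1 and 2 h, and none was called lower. After quantile normalisation 3 (Fcgr1, Fcgr2b and Fcgr4) were called at 2 h, and Fcgr3 was called lower at 0.5 h. In the deposited scaling, the shares of all genes tested that were called higher were 19.5%, 21.2%, 18% and 24.4%, and those called lower were 15.9%, 19.7%, 15.9% and 20.3%. Fcgr1, Fcgr2b, Fcgr4 and Fcer1g were each called higher at all 4 times, as were 11.4% of all genes tested. The median difference of the 5 genes was 0.65, 0.85, 0.63 and 0.73 at the 4 times, and that of all genes was within 0.01 of 0. These backgrounds depend on the scaling: genes higher made up 53.1% of all calls at 1 h and 54.6% at 2 h as deposited, but 42.8% and 43.0% after quantile normalisation.

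**Figure D1:**
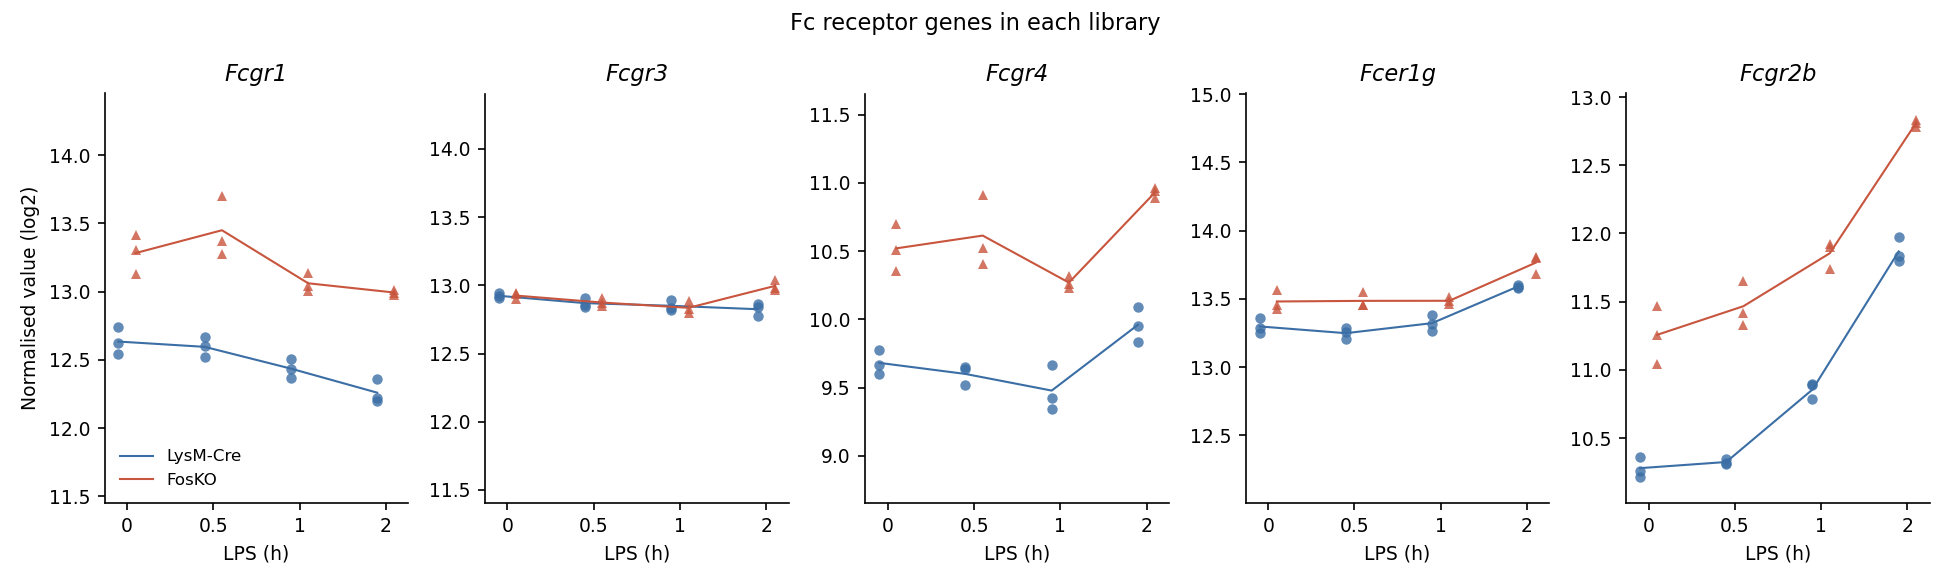
Normalised value (log2) of each gene in each of the 24 libraries against hours of LPS, with LysM-Cre as blue circles, FosKO as red triangles and lines through the group means. Each panel spans the same number of log2 units around its own centre. FosKO libraries sit above all LysM-Cre libraries at every time for Fcgr1, Fcgr4, Fcer1g and Fcgr2b, and for Fcgr3 only at 2 h.

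Among the activating receptors, Fcgr1 encodes the high-affinity IgG receptor. Unstimulated LysM-Cre libraries had Fcgr1 values of 12.74, 12.62 and 12.54, and FosKO libraries had 13.13, 13.31 and 13.42. All FosKO libraries were above all LysM-Cre libraries, as were those of 24% of all genes tested at 0 h and of 25.9%, 23.7% and 28.9% at the later times. The difference was 0.65 ± 0.09 (SE, n = 3 and 3, limma, adjusted p = 5.27e-06). At 0.5 h the LysM-Cre values were 12.67, 12.52 and 12.60 and the FosKO values 13.37, 13.27 and 13.70, a difference of 0.85. At 1 h LysM-Cre libraries had 12.37, 12.43 and 12.50, FosKO libraries had 13.002, 13.14 and 13.04, and the difference was 0.63. At 2 h LysM-Cre libraries had 12.22, 12.20 and 12.36, FosKO libraries had 13.01, 12.98 and 12.99, and the difference was 0.73. The genotypes did not overlap at any time. Within the high 18S set the differences at 0.5 and 1 h were 0.90 and 0.72, and within the low set, which held 1 FosKO library at each of these times, they were 0.77 and 0.53.

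Fcgr4 encodes an activating receptor of intermediate affinity, related to human FCGR3A. At 0 h its values were 9.78, 9.67 and 9.60 in LysM-Cre and 10.35, 10.51 and 10.70 in FosKO. The FosKO libraries were higher without overlap, by 0.84 ± 0.11 (SE, limma, adjusted p = 3.15e-06). At 0.5 h LysM-Cre libraries had 9.65, 9.52 and 9.63 and FosKO libraries 10.52, 10.41 and 10.91, and the difference was 1.01. At 1 h the values were 9.35, 9.43 and 9.66 against 10.26, 10.32 and 10.23, a difference of 0.79. At 2 h they were 9.95, 9.84 and 10.09 against 10.97, 10.89 and 10.94, a difference of 0.97, or 1.96-fold. Fcgr4 was thus higher in every FosKO library than in any LysM-Cre library of the same time. Within the 18S sets the differences were 1.08 and 0.89 (high and low) at 0.5 h and 0.93 and 0.72 at 1 h.

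Fcgr3 encodes a low-affinity activating receptor, and no genotype difference in it was called before 2 h. At 0 h LysM-Cre libraries had 12.94, 12.92 and 12.91 and FosKO libraries had 12.93, 12.90 and 12.94, which overlapped. The difference was 0.00 with a 95% confidence interval from -0.06 to 0.06 (limma, adjusted p = 0.977). At 0.5 and 1 h the differences were 0.00 and -0.01, again with overlap and with adjusted p of 0.934 and 0.743. After quantile normalisation the differences at 0, 0.5 and 1 h were -0.09, -0.11 and -0.09, of which that at 0.5 h was called (adjusted p = 0.0208). Between the sets of libraries with high and low 18S the sign of the Fcgr3 difference changed, with -0.017 and 0.046 at 0.5 h and -0.083 and 0.054 at 1 h. At 2 h the LysM-Cre values were 12.84, 12.77 and 12.86 and the FosKO values 13.04, 12.98 and 12.97. The FosKO libraries lay above the LysM-Cre libraries by 0.17 ± 0.03 (SE, adjusted p = 7.3e-05), or 1.13-fold. This call depended on the scaling: after quantile normalisation the difference at 2 h was -0.01 (adjusted p = 0.900).

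Fcer1g encodes the gamma chain, which the activating receptors need for signalling and for their place at the cell surface. At 0 h its values were 13.36, 13.29 and 13.25 in LysM-Cre and 13.46, 13.43 and 13.56 in FosKO. The difference was 0.18 ± 0.04 (SE, limma, adjusted p = 0.00163), and the genotypes did not overlap. At 0.5, 1 and 2 h the differences were 0.24, 0.16 and 0.17, which correspond to 1.18-, 1.12- and 1.13-fold, again without overlap. The call at 2 h was lost after quantile normalisation, where the difference was 0.01 (adjusted p = 0.853). The call at 1 h was also lost among the high 18S libraries (0.18, adjusted p = 0.0612), of which 1 was LysM-Cre at 1 h. That fit takes the spread of this lone library from the other groups, and the difference itself was no smaller.

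Fcgr2b, the inhibitory receptor, had the largest genotype difference of the 5 genes at 0, 0.5 and 1 h. At 0 h LysM-Cre libraries had 10.36, 10.22 and 10.26 and FosKO libraries had 11.05, 11.26 and 11.47. The FosKO libraries were higher without overlap, by 0.98 ± 0.08 (SE, limma, adjusted p = 2.48e-08). At 0.5 h the values were 10.35, 10.32 and 10.31 against 11.42, 11.33 and 11.65, a difference of 1.14, or 2.21-fold. At 1 h they were 10.89, 10.78 and 10.89 against 11.74, 11.90 and 11.92, a difference of 1.00. At 2 h they were 11.84, 11.79 and 11.98 against 12.81, 12.78 and 12.83, a difference of 0.94. At no time did an unstimulated or stimulated FosKO library overlap the LysM-Cre libraries of that time. The differences within the 18S sets were 1.158 and 1.11 (high and low) at 0.5 h and 1.02 and 0.90 at 1 h. As a signed value, Fcgr2b's difference lay above that of 98.9%, 98.9%, 98.4% and 98.3% of genes tested at 0, 0.5, 1 and 2 h. Genes lower in FosKO count as below it.

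**Figure D2:**
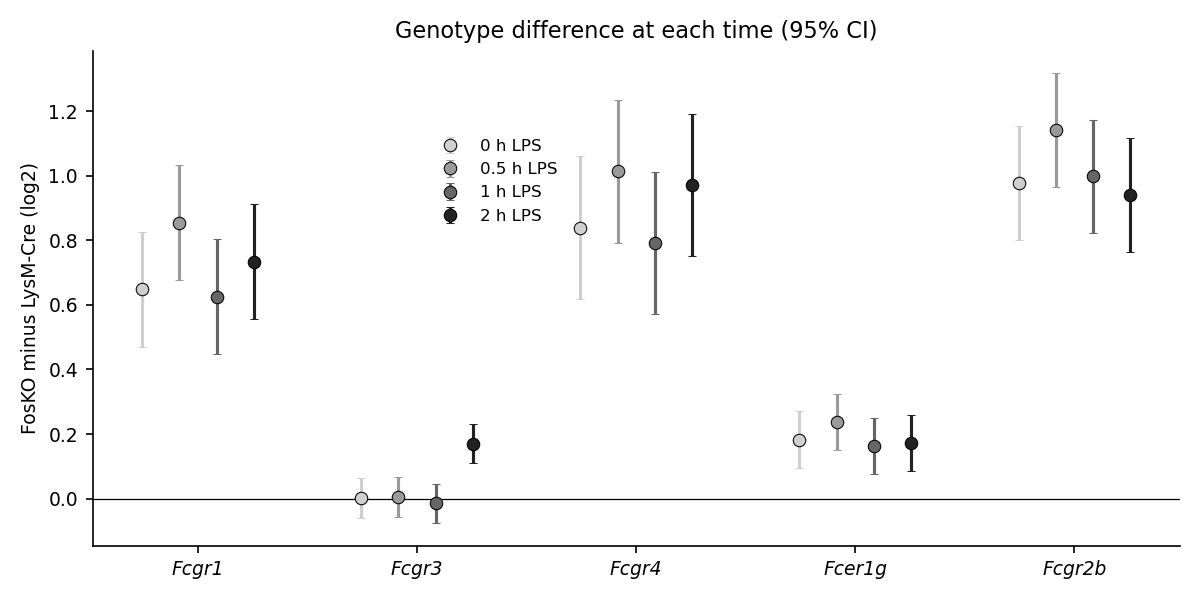
Genotype difference (FosKO minus LysM-Cre, log2) of each gene at 0, 0.5, 1 and 2 h of LPS, from light to dark, with 95% confidence intervals from limma. Fcgr1, Fcgr4 and Fcgr2b lie between 0.63 and 1.14, Fcer1g between 0.16 and 0.24, and Fcgr3 near 0 except at 2 h (0.17).

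Reads can be split between similar genes, and Fcgr3 and Fcgr2b are close relatives. Of the 1298 distinct 50-base words of the longest coding Fcgr3 transcript, 166 (12.8%) also occur in Fcgr2b. These are 4.96% of the 3347 words of Fcgr2b, and 7.44% of its words occur in any other gene. Fcgr1, Fcgr4 and Fcer1g shared no such word with another gene. RSEM, which the study used, divides reads that fit several genes, so part of the signal of Fcgr3 and Fcgr2b is less certain than that of the other members. Gm38204, an antisense transcript, overlaps Fcgr2b on the plus strand. It was below the filter in this table, with values from 0.19 to 0.71.

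The next comparison asked how LPS changed each gene within a genotype. At 0.5 h none of the 5 genes was called in either genotype (limma), against 7.24% of all genes in LysM-Cre and 5.92% in FosKO. An unadjusted p under 0.05 was reached by 0 of the 5 in LysM-Cre and by 1 in FosKO, Fcgr2b, with a change of 0.21. With the replicate number as a block within genotype, this change was called (limma, adjusted p = 0.0468). At 1 h Fcgr2b was called in both genotypes, with a rise of 0.58 in LysM-Cre (adjusted p = 1.25e-05) and of 0.60 in FosKO (adjusted p = 9.05e-06). In the main fit Fcgr2b was the only one of the 5 called in LysM-Cre at 1 h, where 35.8% of all genes were. In FosKO, where 32.6% of all genes were called, Fcgr3 was called too and fell by 0.09 (adjusted p = 0.0233). This call was lost without FosKO 0 h replicate 1 (-0.08, adjusted p = 0.0637) or replicate 3 (-0.08, 0.0669), and without FosKO 1 h replicate 2 (-0.08, 0.0688) or replicate 3 (-0.07, 0.113). After quantile normalisation all 5 genes were called at 1 h in both genotypes, with Fcgr2b higher and the others lower. Under that scaling 14.7% of all genes were called higher and 24.4% lower in LysM-Cre, and 12.7% and 23.2% in FosKO. Fcgr1 changed by -0.20 and -0.22 and Fcgr4 by -0.20 and -0.25 at 1 h in LysM-Cre and FosKO, and Fcer1g by 0.02 and 0.00, none of them called in the main fit. With a replicate block, Fcgr1 and Fcgr4 in FosKO and Fcgr3 in LysM-Cre were called at 1 h, as given below.

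By 2 h all 5 genes were called in both genotypes, against 60.8% of all genes in LysM-Cre and 62.1% in FosKO. Genes higher were 50.3% and 52.5% of the calls as deposited and 40.0% and 39.2% after quantile normalisation. Fcgr2b rose by 1.59 ± 0.08 (SE, adjusted p = 9.03e-13) in LysM-Cre and by 1.55 ± 0.08 (SE, adjusted p = 1.21e-12) in FosKO. As a signed value, the LysM-Cre change lay above that of 97.3% of genes, so genes that fell count as below it. Fcgr1 fell in both, by 0.37 in LysM-Cre (adjusted p = 0.000718) and by 0.29 in FosKO (adjusted p = 0.00585). Fcgr4 rose by 0.28 in LysM-Cre (adjusted p = 0.028) and by 0.41 in FosKO (adjusted p = 0.00206). The Fcgr4 calls were lost after quantile normalisation (0.20 in each genotype, adjusted p = 0.105 and 0.103). The LysM-Cre call was also lost without LysM-Cre 0 h replicate 2 (0.27, adjusted p = 0.0635) or replicate 3 (0.24, 0.101), and without LysM-Cre 2 h replicate 1 (0.28, 0.0551) or replicate 3 (0.21, 0.129).

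Fcer1g was higher at 2 h by 0.29 in LysM-Cre (adjusted p = 3.22e-06) and by 0.28 in FosKO (adjusted p = 4.81e-06). After quantile normalisation its direction turned, to -0.05 (adjusted p = 0.267) and -0.17 (adjusted p = 0.000471). Fcgr3 fell in LysM-Cre by 0.10 (adjusted p = 0.00657) and was higher in FosKO by 0.07 (adjusted p = 0.0426). After quantile normalisation Fcgr3 was lower in both genotypes, by -0.42 and -0.33. The FosKO call in Fcgr3 was also lost with no filter on low values (adjusted p = 0.0684) and when only the groups compared entered the fit (0.119). The FosKO call was further lost without FosKO 0 h replicate 1 (0.08, adjusted p = 0.0590) or replicate 2 (0.06, 0.144), and without FosKO 2 h replicate 1 (0.05, 0.197) or replicate 2 (0.08, 0.0519). The LysM-Cre call was lost without LysM-Cre 2 h replicate 2 (-0.07, adjusted p = 0.0538). The changes of Fcgr2b and Fcgr1 at 2 h kept their direction and call under quantile normalisation.

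**Figure D3:**
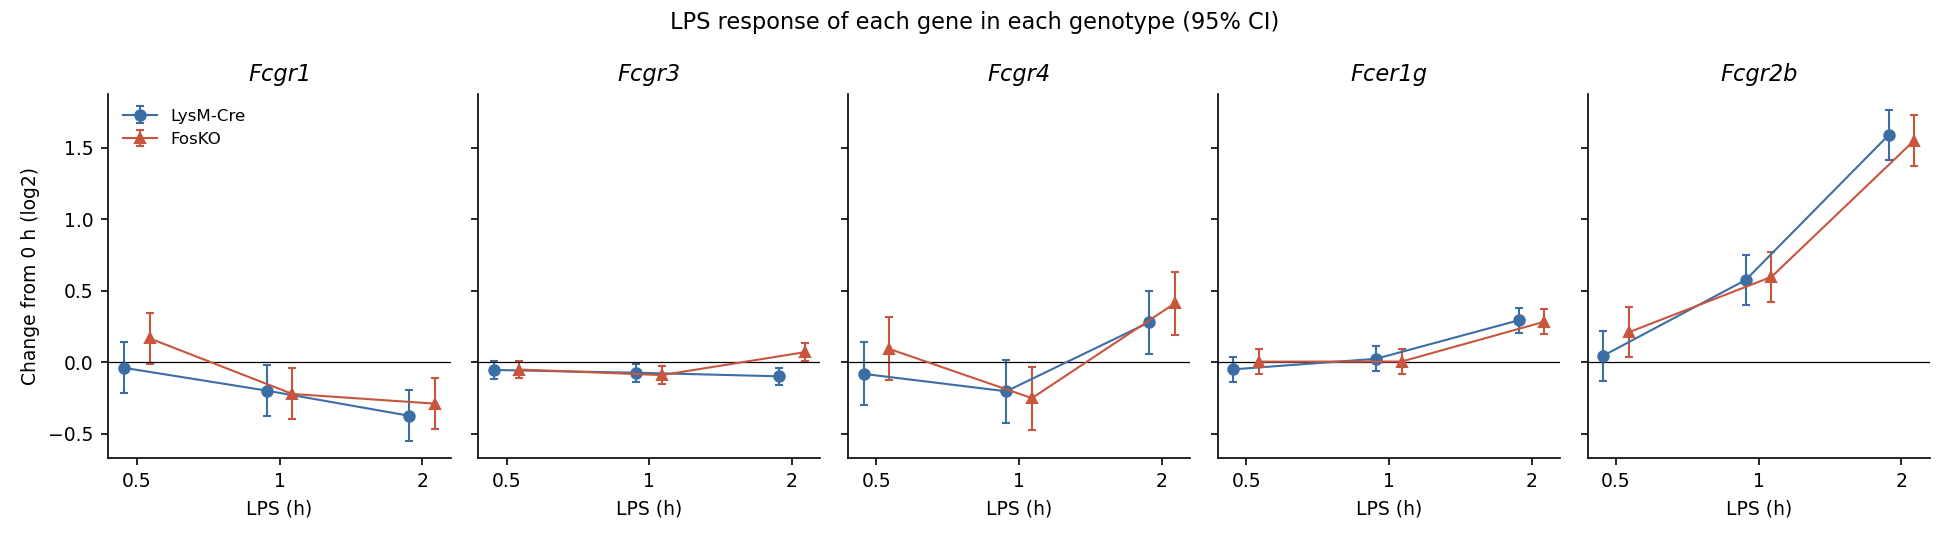
Change from 0 h (log2) of each gene at 0.5, 1 and 2 h of LPS in LysM-Cre (blue circles) and FosKO (red triangles), with 95% confidence intervals from limma. Fcgr2b climbs to 1.59 and 1.55 at 2 h in the 2 genotypes, and all other changes at 2 h lie between -0.37 and 0.41.

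Whether the LPS response itself differed between genotypes was tested as an interaction. None of the 5 genes was called at 0.5 or 1 h (limma, 0 at an unadjusted p under 0.05 at both times), against 0.115% and 1.22% of all genes. At 2 h, where 15% of all genes were called, Fcgr3 alone of the 5 was called, with a response higher in FosKO by 0.17 ± 0.04 (SE, adjusted p = 0.00806). After quantile normalisation this difference was 0.09 and was no longer called (adjusted p = 0.340). For Fcgr2b the difference of response at 2 h was -0.04, with a 95% confidence interval from -0.29 to 0.21. It was 0.08 for Fcgr1 (-0.17 to 0.34), 0.13 for Fcgr4 (-0.18 to 0.44) and -0.01 for Fcer1g (-0.13 to 0.11). These intervals allow differences of response in either direction.

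The balance of each receptor against the inhibitory gene was described by its log2 ratio to Fcgr2b within each library. A single factor applied to a library cancels in this ratio, but quantile normalisation can move it. Values are given without a test. They follow changes in balance and do not compare the amounts of different transcripts, since they are not divided by length. In unstimulated LysM-Cre libraries the ratio of Fcgr3 was 2.64 ± 0.06 (SD, n = 3), and in FosKO it was 1.67 ± 0.21. The FosKO ratios, from 1.47 to 1.89, were all below the LysM-Cre ratios, from 2.58 to 2.70. The Fcgr3 ratio was lower in FosKO by -0.98, -1.14, -1.01 and -0.77 at the 4 times, with no overlap at any time. These values mostly restate the difference in Fcgr2b itself: the ratio of all other tested genes to Fcgr2b had a median difference of -0.97, -1.15, -0.997 and -0.94, and 96.7%, 96.4%, 95.6% and 96% of genes were lower without overlap. For Fcer1g the ratio was lower by -0.79, -0.91, -0.83 and -0.77, again with no overlap. The Fcgr1 ratio differed less, by -0.33, -0.29, -0.37 and -0.21, and the genotypes still did not overlap. The Fcgr4 ratio differed by -0.14 at 0 h without overlap, and by -0.13, -0.21 and 0.03 at 0.5, 1 and 2 h with overlap. Of the 4 ratios, that of Fcgr4 differed least between the genotypes.

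LPS moved the ratios further. In LysM-Cre the ratio to Fcgr2b at 2 h was below that at 0 h by -1.96 for Fcgr1, -1.69 for Fcgr3, -1.31 for Fcgr4 and -1.29 for Fcer1g. In FosKO the changes were -1.84, -1.48, -1.14 and -1.27. No library at 2 h overlapped those at 0 h, as for the ratio of 96.4% of all other genes in LysM-Cre and 95.5% in FosKO. The median change over all genes was -1.604 and -1.55. The lowest Fcgr3 ratio was in FosKO at 2 h (0.19 ± 0.05, SD, n = 3), against 0.96 ± 0.06 in LysM-Cre at that time.

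**Figure D4:**
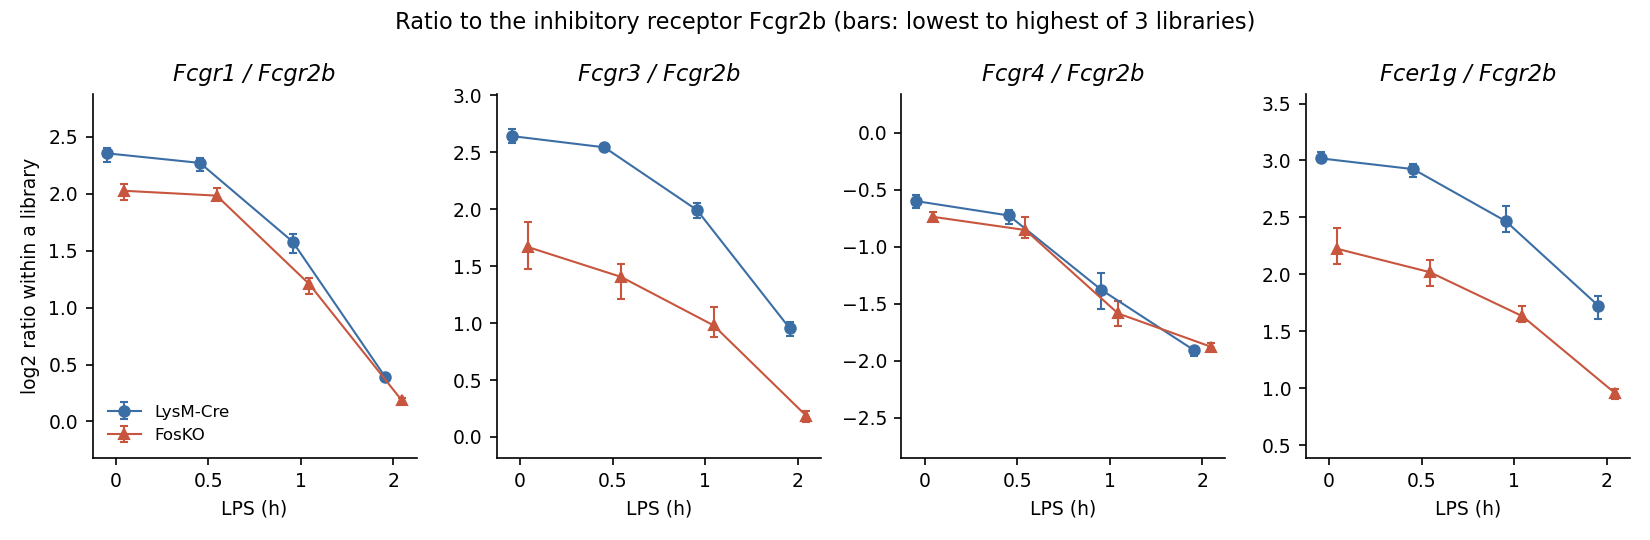
Log2 ratio of Fcgr1, Fcgr3, Fcgr4 and Fcer1g to Fcgr2b within a library against hours of LPS, as the mean of 3 libraries with bars from the lowest to the highest, in LysM-Cre (blue circles) and FosKO (red triangles). All ratios fall with time in both genotypes, FosKO lies below LysM-Cre by 0.77 to 1.14 for Fcgr3, and the genotypes overlap for Fcgr4 from 0.5 h on.

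To order the genes by level, each value was divided by the length of the longest coding transcript and is given as log2 per kb. In unstimulated LysM-Cre macrophages the order was Fcer1g (13.85), Fcgr3 (12.49), Fcgr1 (11.26), Fcgr4 (9.35) and Fcgr2b (8.45), and the largest SD over the 3 libraries of this group was 0.10. Neighbours in this order were farther apart than that spread. In unstimulated FosKO the order was the same, with 14.03, 12.49, 11.91, 10.19 and 9.43. After 2 h of LPS Fcgr2b (10.04) was above Fcgr4 (9.63) in LysM-Cre, and the same held in FosKO (10.98 and 10.60), with Fcgr1 next above at 11.62. Dividing by the union of exons instead lowered Fcgr2b to 7.75, Fcgr3 to 12.13 and Fcer1g to 13.49 in unstimulated LysM-Cre. The order at 0 h stayed the same, but at 2 h Fcgr2b then lay below Fcgr4 (9.33 and 9.63 in LysM-Cre, 10.28 and 10.60 in FosKO).

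Within groups, libraries that were high for one of these genes tended to be high for others. Over the 24 libraries, as deviations from their group means, Pearson's r was 0.95 between Fcgr1 and Fcgr4, 0.85 between Fcgr1 and Fcgr2b and 0.80 between Fcgr2b and Fcgr4. It was lower between Fcer1g and Fcgr1 (0.42), Fcgr2b (0.47) and Fcgr4 (0.35), and 0.01 to 0.14 between Fcgr3 and the other 4 genes. These are descriptions over libraries that share their processing. The genes whose values were most like those of each member over the 24 libraries, among 10563 genes compared, were Trim34a (r = 0.984), Parp11 (0.984) and Trim14 (0.980) for Fcgr1, and Pydc4 (0.992), Pydc3 (0.989) and Mov10 (0.987) for Fcgr4. For Fcgr2b they were Lacc1 (0.991), Ifi205 (0.991) and Fpr2 (0.989), and for Fcer1g Agtrap (0.970), Mmp25 (0.970) and Itgal (0.968). The nearest genes to Fcgr3 were less alike, with Uhrf2 at 0.760, Slc37a3 at 0.757 and Tmem173 at 0.756.

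Other receptors for immunoglobulins were examined as a list of 13, of which 6 passed the filter. Of these 6, 2 were called higher and 2 lower in FosKO at 0, 0.5 and 1 h, and 3 higher and 1 lower at 2 h. Of all genes tested, 19.5%, 21.2%, 18% and 24.4% were called higher and 15.9%, 19.7%, 15.9% and 20.3% lower at these times. Trim21, which encodes a cytosolic receptor for antibody Fc, was higher by 0.51, 0.68, 0.71 and 0.49 at the 4 times (limma, adjusted p = 3.99e-06 at 0 h) and rose by 1.44 with 2 h of LPS in LysM-Cre. Fcrls, an Fc receptor-like gene, was higher by 0.43 to 0.55. Fcrl1 was lower at all 4 times, with differences of -0.17, -0.20, -0.25 and -0.25. The median difference of the list was 0.18 at 0 h, against 0.00 over all genes.

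A second list held 9 other receptors that signal through Fcer1g, of which 6 passed the filter. Called higher were 5 at 0, 0.5 and 1 h and 4 at 2 h, and called lower was 1 at 0, 0.5 and 1 h (Clec4b1) and 0 at 2 h. The background was again 19.5%, 21.2%, 18% and 24.4% of all genes called higher and 15.9% to 20.3% called lower. After quantile normalisation 5, 5, 2 and 1 of the 6 were called higher, against 16.4%, 19%, 15% and 18.7% of all genes. Clec4n, which encodes Dectin-2, a receptor for fungal mannans, was higher by 1.43, 1.49, 1.41 and 1.53 (adjusted p = 1.05e-10 at 0 h), which exceeds the difference of any Fc receptor at the same time. Clec4e, which encodes the C-type lectin Mincle, was higher in FosKO by 1.02 at 0 h but by 0.25 at 2 h. With 2 h of LPS it rose by 2.86 (LysM-Cre) and 2.08 (FosKO), and its response was lower in FosKO by -0.78 (adjusted p = 0.00033). Pira2 was higher by 0.22 to 0.29 and Clec4d by 0.11 to 0.30. The Clec4d call at 1 h (limma, adjusted p = 0.0492) was lost with TMM factors, another scaling (0.10, adjusted p = 0.0576). After quantile normalisation Clec4d and Clec4e were not called at 1 and 2 h (Clec4d turned to -0.05 at 2 h, and Clec4e was at 0.19 and 0.08), and Pira2 was not called at 2 h (0.09).

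Of 29 genes of activating signalling below the receptors, all passed the filter. Called higher in FosKO were 12, 14, 8 and 12 at the 4 times, and called lower were 3, 4, 3 and 3, against 19.5%, 21.2%, 18% and 24.4% of all genes called higher and 15.9%, 19.7%, 15.9% and 20.3% called lower. The median difference was 0.06 to 0.10. This split depended on the scaling: after quantile normalisation 7, 10, 6 and 8 were called higher and 7, 9, 8 and 10 lower, against 16.4%, 19%, 15% and 18.7% of all genes higher and 19.8%, 22.7%, 20% and 24.7% lower. The adaptor gene Lcp2 (SLP-76) was higher by 0.55, 0.59, 0.49 and 0.57 (adjusted p = 3.55e-07 at 0 h) and rose by 2.12 with 2 h of LPS in LysM-Cre. The exchange factor genes Vav2 and Vav1 were higher by 0.30 to 0.36 and by 0.15 to 0.31, and the Src family kinase gene Lyn by 0.22 to 0.37. Vav1 was not called at 2 h after quantile normalisation (0.02).

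Of 16 genes of inhibitory signalling, all passed the filter, and 6, 7, 6 and 9 were called higher and 4, 4, 4 and 3 lower in FosKO at the 4 times. The shares of all genes were 19.5%, 21.2%, 18% and 24.4% higher and 15.9%, 19.7%, 15.9% and 20.3% lower. After quantile normalisation 4, 5, 6 and 3 were called higher and 5, 5, 5 and 4 lower, against 16.4%, 19%, 15% and 18.7% of all genes higher and 19.8%, 22.7%, 20% and 24.7% lower. Among those called at all 4 times in one direction, the 4 with the largest mean differences went both ways. The adaptor genes Dok2 and Dok3 were lower at all 4 times, with mean differences of -0.55 and -0.29, and Pag1, which encodes an anchor for the kinase CSK, and the ubiquitin ligase gene Cblb were higher, with means of 0.50 and 0.28.

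**Figure D5:**
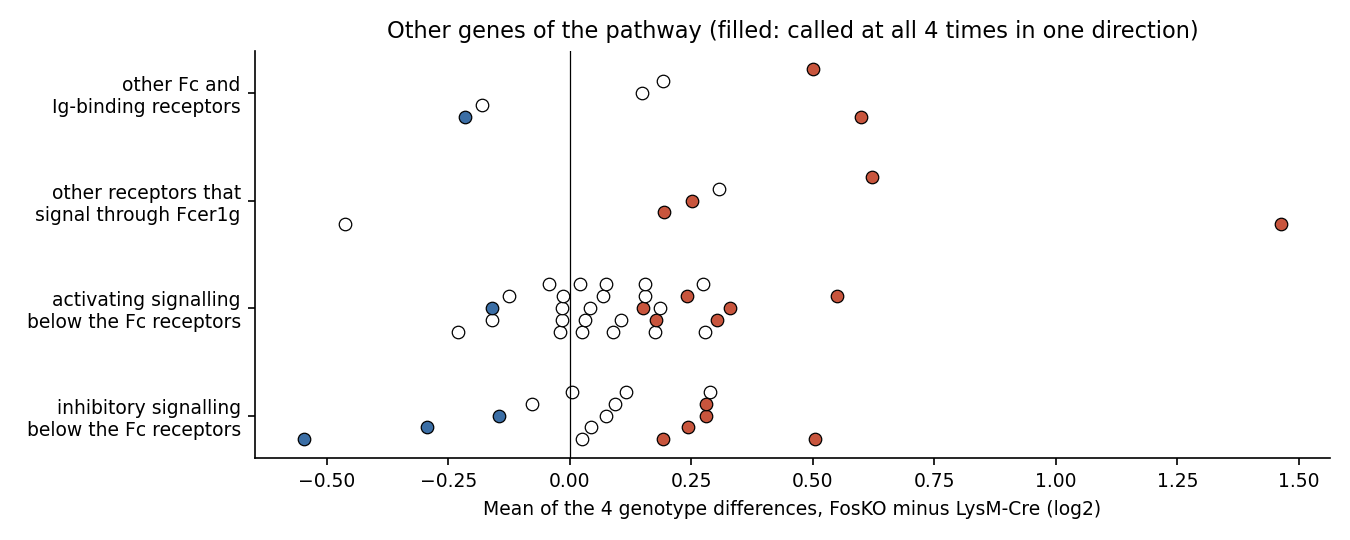
Mean over the 4 times of the genotype difference (FosKO minus LysM-Cre, log2) for each tested gene of the 4 pathway lists, 1 point per gene, filled red or blue where the gene was called higher or lower at all 4 times. Clec4n stands at 1.46, and the signalling lists hold genes on both sides of 0, from Dok2 at -0.55 to Lcp2 at 0.55.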

How the data were processed

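RNA was measured by RNA-seq in 24 libraries of mouse BMDMs. Per the study's methods, the authors made TruSeq libraries and sequenced single ends with strand information. Per the labels, reads were processed with STAR 2.5.2a, RSEM 1.2.31 and DESeq2 1.16.1 on GRCm38. In the study's text the authors name RefSeq genes and another DESeq2 version, while the deposited rows carry Ensembl identifiers. The deposited values were normalised log2 values, one per gene and library, and how they were transformed is not given in the sources used here. If the authors used a regularised log, differences in genes with few reads are understated. Read counts were not used here, so the depth of each library is unknown and no counting interval was computed.

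Because the values were not counts, limma 3.58.1 (R 4.3.3) took the place of a count test. All 24 libraries entered one fit of 8 group means, with 16 residual degrees of freedom and variances moderated with a trend on the mean. Genes were kept if 2 to the power of the value reached 5 in 3 or more libraries, leaving 13901 of 24273. From the fit came 13 comparisons: genotype at 4 times, LPS times against 0 h in each genotype, and the differences of the LPS responses. All comparisons of one time series share their 0 h libraries. Replicates correlated at 0.995 to 0.998 and no 2 libraries held identical values. The script was tested on simulated data.

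Ratios were differences of log2 values within a library. Positions and lengths came from GENCODE for GRCm38, and promoter windows, from 250 bases before to 50 after a start, from RefSeq, where all 5 genes had an entry. Named pathway genes were, for each list, up to 4 with the largest mean genotype difference among those called at all 4 times in one direction. The 5 genes, the lists, the motifs and the tests were chosen with earlier results of these data known. Alternatives were quantile normalisation, TMM factors, a pseudocount of 1, no filter, a minimum of 50, only the groups compared, the 18S set as a term or as a restriction, replicate blocks, leaving out each library, Csf1r as the denominator, and the union of exons.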

Additional observations from a re-analysis of the deposited data

Results flagged for a closer look

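The LPS response of Fcgr3 at 2 h differed between the genotypes, by 0.17 ± 0.04 (SE, FosKO minus LysM-Cre, log2, limma interaction, adjusted p = 0.00806). Fcgr3 fell by 0.10 in LysM-Cre, with 3 of 3 libraries at 2 h below all 3 at 0 h, and was higher by 0.07 in FosKO, with 3 of 3 libraries above all 3 at 0 h. Such separation in either direction was common, with 67.9% of all genes in LysM-Cre and 63.6% in FosKO. Over all alternatives of the fit, the adjusted p of this difference ran from 0.00077 to 0.340 and its size from 0.09 to 0.19. The one alternative under which it was not called was quantile normalisation. The part that reads shared with Fcgr2b have in the difference was not tested.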

How the results depend on the processing

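The higher levels of Fcgr1, Fcgr2b and Fcgr4 in FosKO kept their direction and their call at all 4 times under every alternative of the fit. Their differences ran from 0.55 to 0.94 for Fcgr1, 0.79 to 1.21 for Fcgr2b and 0.72 to 1.12 for Fcgr4. Quantile normalisation moved most of the rest, and the cause was not tested. The genotype difference of Fcgr3 became -0.093, -0.11 and -0.0071 at 0, 0.5 and 2 h. The LPS change of Fcer1g became -0.20 at 1 h and -0.050 at 2 h in LysM-Cre and -0.23 and -0.17 in FosKO, that of Fcgr3 at 2 h in FosKO became -0.33, and the difference of response of Fcgr1 at 2 h became -0.0079. The number of the 5 genes called became 5 and 3 for genotype at 0.5 and 2 h, 1, 5 and 3 for LPS at 0.5, 1 and 2 h in LysM-Cre, 1, 5 and 4 at 0.5, 1 and 2 h in FosKO, and 0 for the difference of response at 2 h. With only the groups compared in the fit, 2 were called at 1 h in LysM-Cre and 1 in FosKO. With only the high 18S libraries, the genotype difference of Fcgr3 at 0.5 h was -0.017.

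The replicate numbers did not pair the libraries across genotypes: correlations of deviations between same-numbered libraries ran from -0.53 to 0.31, and in 3 of 12 pairs the own number gave the best correlation. Between 0 h and each later time of one genotype they were 0.01 to 0.27. In 17 of these 18 pairs the own number gave the best correlation, a hint from the data and not from the design. Pairs between the later times were not examined. Among the comparisons with 0 h, all 3 pairs were over 0.1 only for FosKO at 0 and 0.5 h (0.13 to 0.27). With a replicate block of 3 numbers, 2 genes were called at 1 h of LPS in LysM-Cre and 4 in FosKO. The added calls were Fcgr3 in LysM-Cre (-0.07, limma, adjusted p = 0.0121) and Fcgr1 (-0.22, 0.0431) and Fcgr4 (-0.25, 0.0442) in FosKO. With a block of numbers within genotype, the same genes were added (0.0145, 0.0379 and 0.0496), the counts were again 2 and 4, and 1 was called at 0.5 h in FosKO (Fcgr2b, 0.21, adjusted p = 0.0468).

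With each library left out in turn, the genotype difference of Fcgr3 at 0, 0.5 and 1 h ran from -0.0066 to 0.014, from -0.011 to 0.024 and from -0.038 to 0.0074. The change of Fcer1g at 1 h ran from -0.0058 to 0.054 in LysM-Cre and -0.023 to 0.046 in FosKO. The difference of response at 2 h ran from -0.14 to 0.068 for Fcgr2b and -0.039 to 0.031 for Fcer1g. The count of genes called ran from 1 to 2 at 1 h in LysM-Cre (2 without LysM-Cre 1 h replicate 1), 0 to 1 at 0.5 h in FosKO (1 without FosKO 0 h replicate 3) and 1 to 3 at 1 h in FosKO (1 without FosKO 0 h replicate 3 or FosKO 1 h replicate 3). With Csf1r in place of Fcgr2b as the denominator, the genotype differences of the ratio at 0, 0.5, 1 and 2 h were 0.79, 0.90, 0.71 and 0.73 for Fcgr1, 0.14, 0.045, 0.065 and 0.17 for Fcgr3, 0.98, 1.06, 0.87 and 0.97 for Fcgr4, and 0.32, 0.28, 0.24 and 0.17 for Fcer1g. The sign was thus the reverse of that with Fcgr2b, except for Fcgr4 at 2 h. Csf1r itself differed by -0.14 at 0 h (limma, adjusted p = 0.0106) and was not called later. Per kb of the union of exons, levels in unstimulated LysM-Cre were 7.75 for Fcgr2b, 12.13 for Fcgr3 and 13.49 for Fcer1g. Of counts over all genes, that of LPS at 0.5 h in FosKO fell from 823 to 301 with only the groups compared and to 542 without FosKO 0.5 h replicate 3. With only the high 18S libraries, which hold 1 LysM-Cre library at 1 h (assumed to vary like the other groups), those for genotype and for LPS in LysM-Cre at 1 h fell from 4708 to 2994 and from 4970 to 3009. Those for the difference of response ranged from 6 to 26 at 0.5 h (16 in the deposited scaling) and at 1 h were as low as 93 (169 in the deposited scaling). The study gives only a typical read yield, and the depth of each library is unknown, so no counting limit can be given.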

Other observations

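Within 50 kb of the Fc receptor genes lay 37 other annotated genes, of which 21 were tested. Of these 21, 1, 4, 4 and 3 were called higher in FosKO at 0, 0.5, 1 and 2 h, and 1, 1, 1 and 2 lower, against 18% to 24.4% of all genes higher and 15.9% to 20.3% lower. Pcp4l1, which lies between Fcgr3 and Fcer1g, was lower in FosKO by -0.87, -0.96, -0.90 and -0.85 at the 4 times. Gm10522, a long noncoding RNA between Fcgr2b and Fcgr4, differed by 0.08 at 0 h (not called) and was higher by 0.55, 0.76 and 1.01 at 0.5, 1 and 2 h. Adamts4, which lies beyond Fcer1g and encodes a matrix protease, rose by 6.37 with 2 h of LPS in LysM-Cre, with no genotype difference called at any time. Pcp4l1, Gm20633, Gm10522 and Adamts4 were singled out after their values were seen.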
